A study of Mus musculus with 8 samples.

Results

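The 38 genes described here mark the endothelium, the single cell layer that lines blood vessels and lymphatic vessels. They were chosen by name, with earlier results of these data known. The names cover endothelial junctions, growth factor receptors, leukocyte adhesion, vessel tone, Notch signalling, endothelial transcription factors and lymphatic vessels. They are 38 of the 37074 gene names on the array, and 37 of them are among the 21307 gene names with a probe bright enough to test. Signals came from tibialis anterior, a fast muscle of the lower hind limb, of male C57BL/6J mice aged 14 weeks: 4 control samples and 4 samples from mice given Porphyromonas gingivalis, an anaerobic bacterium of the gum pocket. The bacteria were given orally for 6 weeks from 8 weeks of age, in 100 µL of saline by feeding needle, and the protocol puts the mice on a high-fat diet. The sources used here give neither the controls' treatment nor the bacterial dose, and the labels do not say outright that each sample is 1 mouse. The p-values therefore measure the spread between these samples, whatever their source.

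Endothelial cells hold each other by junction proteins such as VE-cadherin and claudin-5, and they read vascular endothelial growth factors through the receptors encoded by Kdr, Flt1 and Flt4. In skeletal muscle they form the dense capillary bed around the fibres, produce nitric oxide that relaxes the vessel wall, and display adhesion molecules that slow and bind leukocytes when inflammatory signals reach them. Lymphatic endothelial cells are a separate lineage kept by the transcription factor Prox1, and they drain fluid and immune cells from the tissue.

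The 8 arrays correlated at 0.9909 to 0.9949 over tested probes, and 56.3% to 59.3% of spots were well above background. Before scaling, the controls had 75th percentiles of the processed signal of 275 to 305.8, and the P. gingivalis arrays of 238.4 to 255.5. All arrays shared 1 slide and 1 scan. Row 1 of that slide held the controls and row 2 the P. gingivalis arrays, so effects of slide position and of treatment cannot be told apart. The study also deposited a table of log2 values, and its columns match the scanner files clearly (correlations of 0.833 to 0.88, next best at most 0.0784), yet only 4 of its 8 columns match an array of the same group. Those 4 arrays are control 1, control 2, P. gingivalis 3 and P. gingivalis 4. Which source has the right groups could not be settled. Directions below follow the scanner files. The value table's groups are given beside them for members, because most of the members' differences are lost or turn with them. For the other gene lists only the scanner files' groups are given, so whether their differences hold under the value table's groups is not shown.

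Values are log2 signals relative to the array's 75th percentile, so 0 is the 75th percentile and each unit is a doubling. They compare arrays for 1 probe, not 1 gene with another. Each gene is read by its brightest tested probe. The 60-base probes of the 5 members that carry most of what follows are shown by their first 30 bases, since each signal below is hybridisation to this sequence and to no other part of the transcript. Positions are those of the array files on the mm9 build: Cd93 at chr2:148262436-148262495 (minus strand), Kdr at chr5:76329309-76329368 (minus), Icam1 at chr9:20833186-20833245 (plus), Mmrn1 at chr6:60938883-60938942 (plus) and Lyve1 at chr7:117994171-117994230 (minus). An annotation of that build was not used here, so exon and untranslated parts are not stated.
Cd93: acaacataacattctgaggggagtcacagg
Kdr: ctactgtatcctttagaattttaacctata
Icam1: ctgtgggagggtaagcaaccctcccagcac
Mmrn1: tcctgtgagtctttccagtgtagaataaaa
Lyve1: cactttgtgtgcctttaacaaatacattat

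No member passed the adjusted threshold. The lowest adjusted p among them was 0.309 (limma, Benjamini-Hochberg over 31649 probes), and over the whole array 0 gene names passed (0%), with a lowest adjusted p of 0.281 and 3544 probes at an unadjusted p under 0.05. Within that limit the members, chosen with earlier results known, leaned one way. Of 37 tested members 28 had lower and 9 higher mean signal in P. gingivalis muscle, with a median log2 difference of −0.12 against −0.02 over all tested gene names. At an unadjusted p under 0.05, 11 members were lower, which is 29.7% of those tested, where 5.95% of all gene names were. In the other direction 3 members were higher, which is 8.11%, where 4.97% of all gene names were. The groups did not overlap, with every P. gingivalis array below every control, for 10 members (27%; 3.61% of all gene names), and with every one above for 1 member (3.17% of all gene names).

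**Figure D1:**
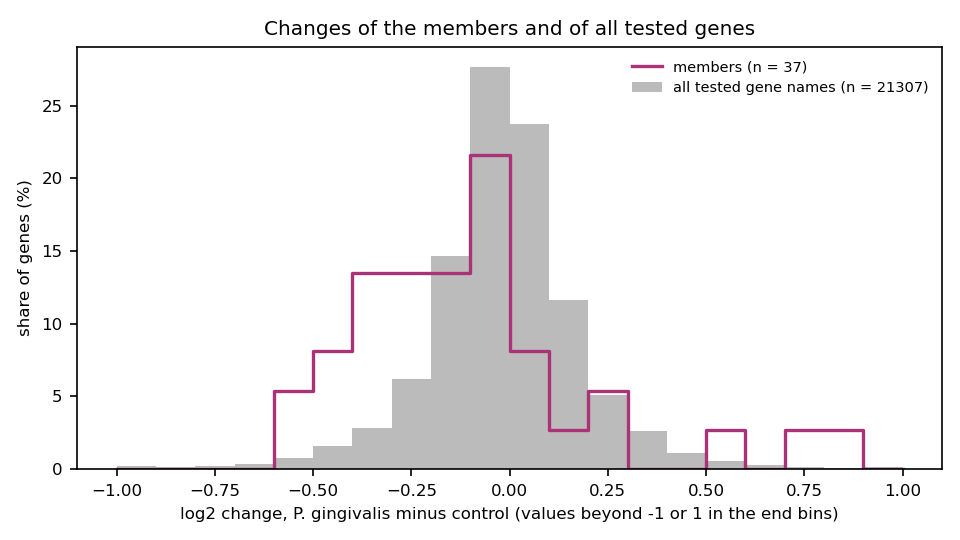
Share of genes (%) by log2 difference, P. gingivalis minus control, in bins of 0.1, for the 37 tested members (line) and all 21307 tested gene names (grey bars). Differences below −0.2 hold 40.5% of the members and 12.3% of all gene names, and differences above 0.2 hold 13.5% and 10%.

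The 11 lower members were Cd93, Erg, Mmrn2, Nos3, Icam1, Kdr, Icam2, Plvap, Egfl7, Cldn5 and Eng, and the 3 higher ones Mmrn1, Lyve1 and Sox17. With the groups of the value table put on the same scanner values, the count lower at an unadjusted p under 0.05 was 0 (2.09% of all gene names) and the count higher was 2 (1.67%), namely Cdh5 and Emcn at 0.24 each. The members' median was then 0.06. On the 4 arrays that both sources group alike, 6 members were lower (4.78% of all gene names) and 4 higher (3.98%). All 11 lower members kept a lower mean, but these arrays are part of the same set. For all of the 11 but Egfl7 and Cldn5 the full groups did not overlap, so a lower mean on fewer arrays was fixed in advance. Egfl7 and Cldn5 could have turned and stood at −0.13 and −0.41, neither at an unadjusted p under 0.05. In bulk muscle, fewer cells of a type and less RNA per cell cannot be told apart.

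**Figure D2:**
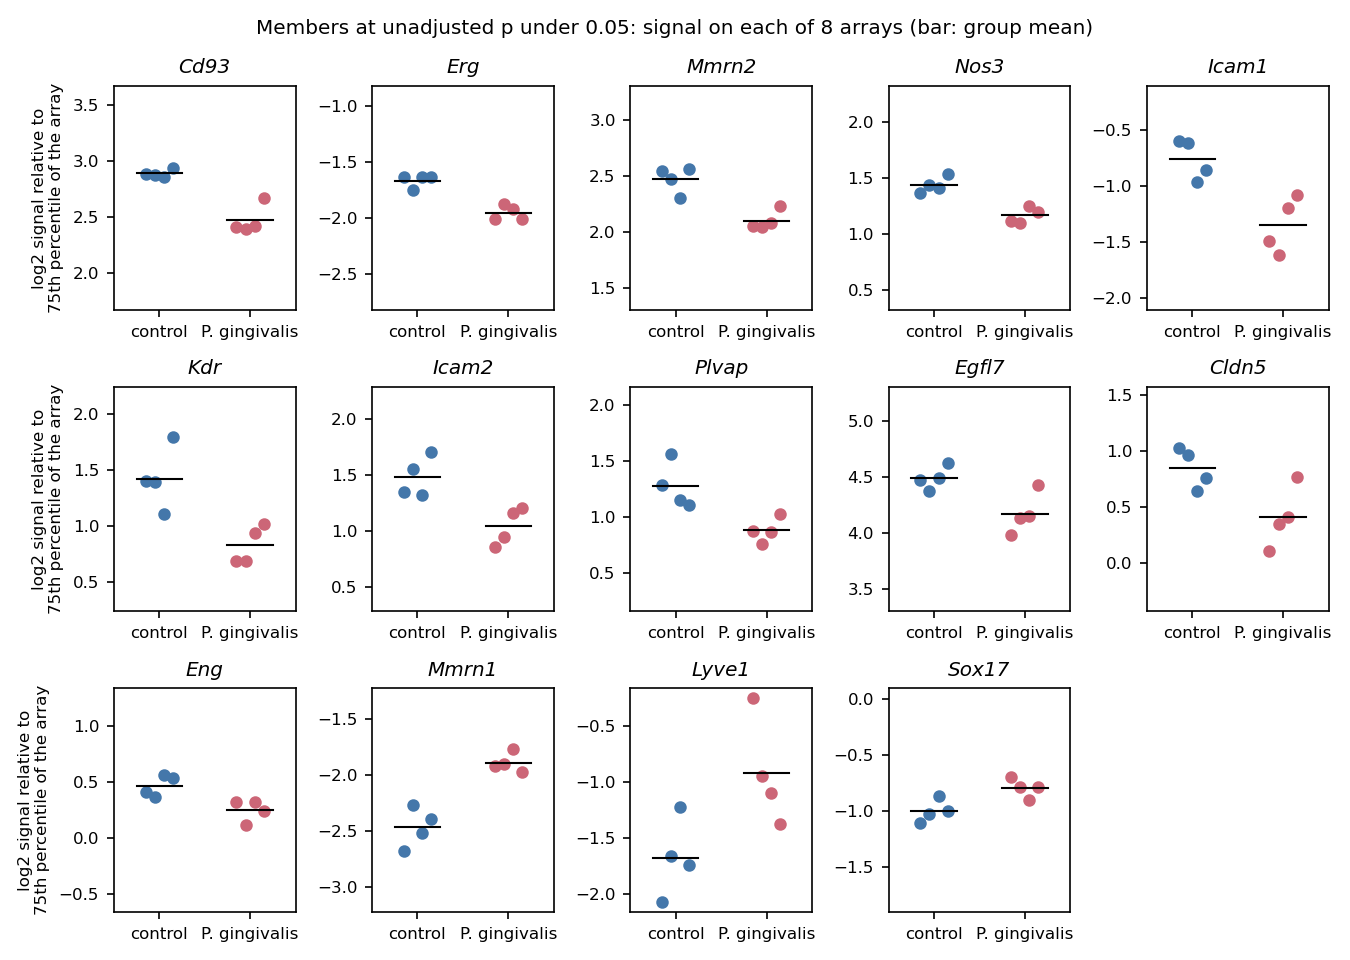
Log2 signal relative to the array's 75th percentile on each of the 8 arrays (points; bars are means of 4 control or 4 P. gingivalis arrays) for the 14 members at an unadjusted p under 0.05. The groups separate fully for Cd93, Erg, Mmrn2, Nos3, Icam1, Kdr, Icam2, Plvap, Eng and Mmrn1, and overlap for Egfl7, Cldn5, Lyve1 and Sox17.

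Among the 5 receptors for vascular endothelial growth factors and angiopoietins, Kdr was the one at an unadjusted p under 0.05. It encodes VEGFR2, the main signalling receptor for VEGF-A on blood endothelium. Kdr signal was 1.40, 1.39, 1.11 and 1.79 in controls 1 to 4 and 0.69, 0.69, 0.94 and 1.02 in P. gingivalis arrays 1 to 4. Every P. gingivalis array lay below every control, with control 4 the highest of all. The log2 difference was −0.59 ± 0.15 (SE), or 1.5-fold lower with a 95% interval of 1.19 to 1.9 (limma, adjusted p = 0.323). Neither of its other probes was well above background on any of the 8 arrays. The value table's groups turned the difference to 0.18, and on the 4 arrays grouped alike it was −0.41, at an unadjusted p under 0.05.

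Flt1 encodes VEGFR1, which binds VEGF-A strongly and signals weakly. Its signal was 3.71, 3.94, 3.98 and 4.04 in controls and 3.81, 4.12, 3.83 and 3.92 with P. gingivalis, so the groups lay over each other. The log2 difference was 0.00, with an interval from −0.22 to 0.23, and its other tested probes stood at 0.09 and 0.15. Tek and Tie1, the angiopoietin receptor TIE2 and its partner, differed by −0.01 (interval −0.25 to 0.23) and −0.02 (−0.33 to 0.29). Flt4, the receptor for the lymphatic growth factor VEGF-C, was dim. It was well above background on 2 control and 3 P. gingivalis arrays, at −5.57, −7.17, −4.93 and −4.54 in controls and −4.83, −4.50, −4.65 and −4.65 with P. gingivalis. The control spread was wide and control 2 lay far below the rest, and the difference of 0.90 ± 0.50 (SE) did not pass (adjusted p = 0.525).

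All 12 junction and surface proteins of the vessel wall had a lower mean with P. gingivalis, where 54.6% of all gene names did. That count depends on the processing and the groups. With normexp, another background correction, Pecam1 and Gja5 stood at 0.01 and 0.03. Under the value table's own labels only Esam, Plvap and Robo4 stayed lower, at −0.01, −0.11 and −0.01. Pecam1, Cdh5 and Emcn were then at 0.17, 0.24 and 0.27. In the main analysis, 5 of the 12 were lower at an unadjusted p under 0.05 (41.7%; 5.95% of all gene names). Groups were apart for 5 (41.7%; 3.61% of all gene names). Averaged over the 12 genes, each centred on its own mean, the level was 0.08 to 0.17 on the control arrays and −0.16 to 0.01 on the P. gingivalis arrays, without overlap. Cd93, a lectin-like receptor of endothelium that binds the matrix protein multimerin-2, had the lowest p of the lower members. Its signal was 2.89, 2.88, 2.86 and 2.94 in controls and 2.41, 2.40, 2.42 and 2.67 with P. gingivalis. The controls were tight and P. gingivalis 4 was the highest of its group, still below every control. The log2 difference was −0.42 ± 0.08 (SE), 1.33-fold lower with an interval of 1.18 to 1.5 (adjusted p = 0.309).

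Icam2, an adhesion molecule that endothelium carries at rest, read 1.35, 1.55, 1.32 and 1.71 in controls and 0.86, 0.95, 1.16 and 1.21 with P. gingivalis. The groups did not overlap, and the difference was −0.44 ± 0.12 (SE; adjusted p = 0.323). Plvap, which forms the diaphragms of endothelial fenestrae and caveolae, read 1.29, 1.56, 1.15 and 1.11 in controls and 0.88, 0.76, 0.87 and 1.03 with P. gingivalis. Control 2 was highest and the groups were apart by a narrow gap, with a difference of −0.39 ± 0.11 (SE; adjusted p = 0.329). Eng encodes endoglin, a coreceptor for TGF-beta and BMP ligands, and read 0.41, 0.36, 0.56 and 0.53 in controls and 0.32, 0.11, 0.32 and 0.24 with P. gingivalis. The difference was small, −0.22 ± 0.08 (SE; adjusted p = 0.386), and the second Eng probe stood at −0.36 (adjusted p = 0.497).

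Cldn5, the claudin that seals endothelial tight junctions, read 1.03, 0.96, 0.64 and 0.76 in controls and 0.11, 0.35, 0.41 and 0.77 with P. gingivalis. P. gingivalis 4 lay among the controls, so the groups overlapped, and the difference was −0.44 ± 0.15 (SE; adjusted p = 0.372). Esam, another tight junction molecule, had groups apart at a small distance: 1.01, 0.92, 1.0 and 1.05 in controls against 0.87, 0.91, 0.80 and 0.87, a difference of −0.13 (adjusted p = 0.446). The general endothelial markers of the group differed little. Pecam1 (CD31), Cdh5 (VE-cadherin), Emcn (endomucin), Robo4 (a guidance receptor that steadies the barrier) and Gja4 (connexin 37) stood at −0.04, −0.05, −0.03, −0.11 and −0.06, each with an interval that spans 0. For Pecam1 the interval was −0.30 to 0.22 and for Cdh5 −0.31 to 0.21, so a shift as large as that of Cd93 lies outside both.

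Gja5, the connexin of arterial endothelium, was read by 3 tested probes that differed. The brightest read −2.53, −2.61, −2.41 and −2.60 in controls and −2.49, −2.81, −2.53 and −2.95 with P. gingivalis, with overlap and a difference of −0.16 (adjusted p = 0.618). The second stood at −0.24 with groups apart (adjusted p = 0.323), and the last, whose positions span 12877 bases of the genome, at −0.05. Under the value table's groups Cd93, Icam2, Eng and Cldn5 turned to 0.08, 0.17, 0.12 and 0.03, and Plvap stood at −0.08. Restricted to the 4 arrays grouped alike, the same 5 genes stood at −0.34, −0.26, −0.10, −0.41 and −0.47, of which Plvap and Cd93 were at an unadjusted p under 0.05.

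**Figure D3:**
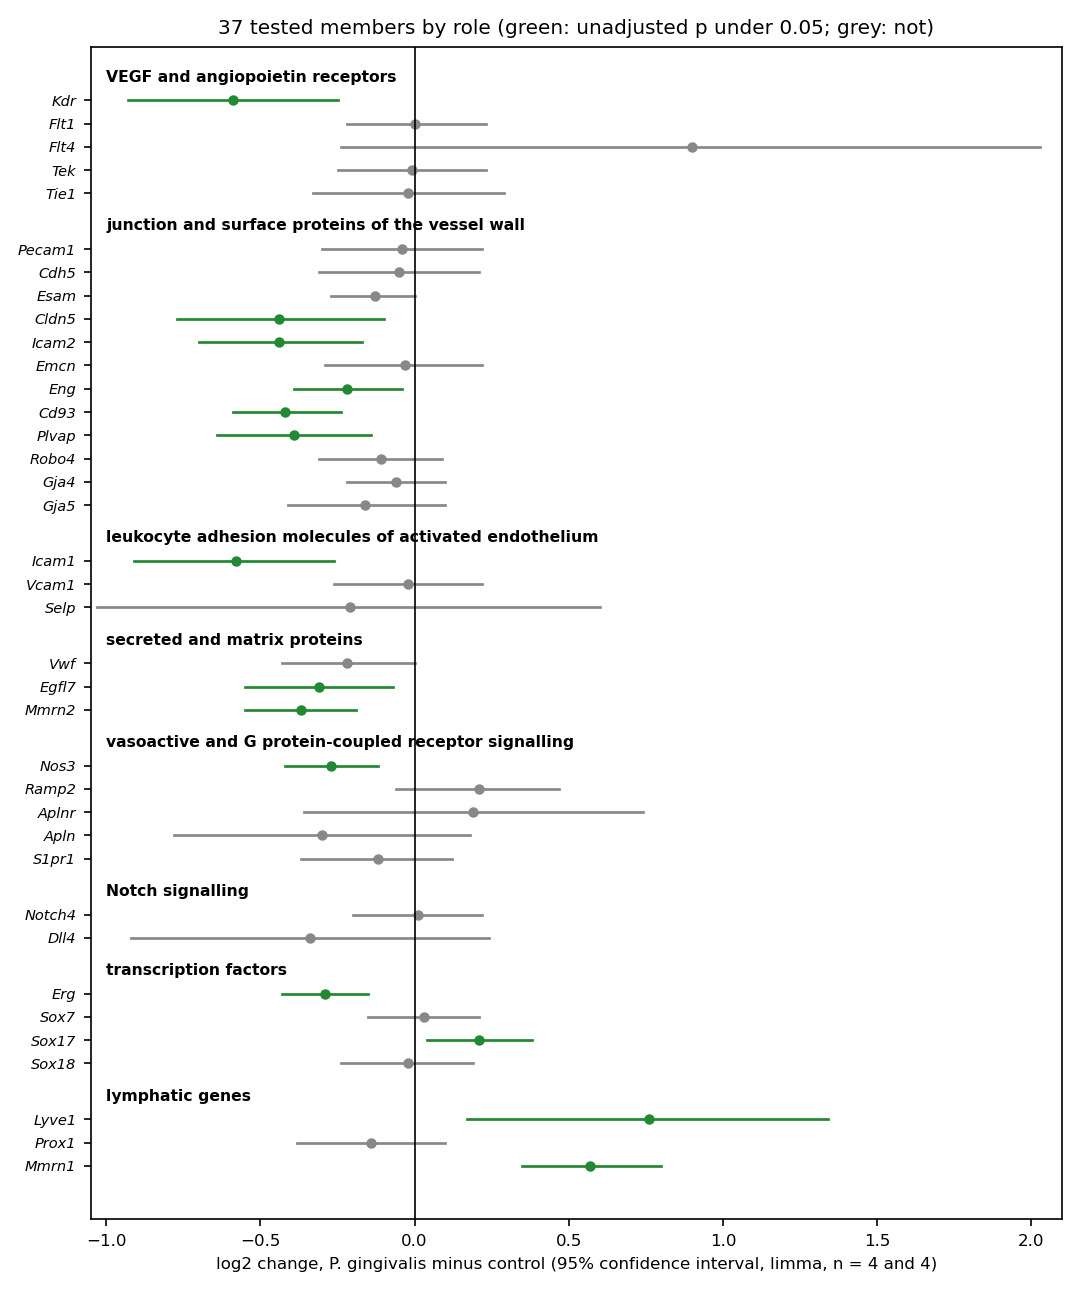
Log2 difference, P. gingivalis minus control, with its 95% confidence interval (limma, 4 arrays a group) for the 37 tested members, ordered by role; green marks an unadjusted p under 0.05. All 12 junction and surface genes lie left of 0, while Lyve1 and Mmrn1 lie right of it at 0.76 and 0.57.

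Of the 4 adhesion molecules that activated endothelium displays to catch leukocytes 3 were tested, and Icam1 was the 1 at an unadjusted p under 0.05. Icam1, the ligand of leukocyte beta-2 integrins, read −0.60, −0.62, −0.97 and −0.86 in controls and −1.49, −1.62, −1.20 and −1.08 with P. gingivalis. All P. gingivalis arrays lay below all controls, and the difference of −0.58 ± 0.14 (SE) was 1.5-fold lower with an interval of 1.2 to 1.87 (adjusted p = 0.323). Vcam1, which binds the integrin VLA-4 on monocytes and lymphocytes, differed by −0.02 with an interval of −0.26 to 0.22. Selp, the P-selectin of endothelial granules and platelets, read −3.00, −3.10, −4.55 and −4.37 in controls and −3.96, −4.16, −3.78 and −3.96 with P. gingivalis. Its controls split into a bright pair and a dim pair around the P. gingivalis values, and the difference of −0.21 ± 0.36 (SE) did not pass (adjusted p = 0.845). Sele, encoding E-selectin, was well above background on 0 of 8 arrays, and no difference is given for it. Regrouped as in the value table, Icam1 turned to 0.05 and Selp stood at −0.61. With the 4 arrays grouped alike they stood at −0.53 and −0.82, both at an unadjusted p under 0.05. For Selp those arrays keep the bright control pair and leave out the dim pair, so −0.82 depends on that choice of arrays.

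Icam1 is a classic target of the transcription factor NF-kB. Of 11 tested NF-kB target genes listed beside the members, 8 were lower in mean (72.7%; 54.6% of all gene names), with a median of −0.26. The 3 higher ones were Nfkbia at 0.26, Relb at 0.06 and Nfkb2 at 0.05. At an unadjusted p under 0.05, 3 were lower (27.3%; 5.95% of all gene names), each with groups apart (3.61% of all gene names). These were the neutrophil chemokine gene Cxcl1, the feedback inhibitor Tnfaip3 (−0.37, adjusted p = 0.338) and the AP-1 member Junb (−0.28, adjusted p = 0.323). Cxcl1 was well above background on 4 control arrays and 0 P. gingivalis arrays, so it passed the filter through the controls alone. The count of 3 and its share include it, and of the 3 only Tnfaip3 and Junb were bright in both groups. Cxcl1 has only a bound, at least 2.23-fold higher in control (means −3.84 and −5.57, adjusted p = 0.309).

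The secreted and matrix proteins, 3 in number, were all lower in mean, and their averaged level did not overlap between groups (0.09 to 0.26 in controls, −0.24 to 0.04 with P. gingivalis). Mmrn2, the vessel wall multimerin that Cd93 binds, read 2.54, 2.47, 2.30 and 2.56 in controls and 2.05, 2.04, 2.08 and 2.23 with P. gingivalis. The groups were apart, with a difference of −0.37 ± 0.08 (SE), 1.29-fold lower with an interval of 1.14 to 1.46 (adjusted p = 0.31). Egfl7, a matrix protein of growing vessels, read 4.47, 4.37, 4.49 and 4.62 in controls and 3.98, 4.13, 4.15 and 4.43 with P. gingivalis. P. gingivalis 4 overlapped the lowest control, and the difference was −0.31 ± 0.10 (SE; adjusted p = 0.372).

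Vwf, the clotting glycoprotein stored in endothelial granules, read 1.83, 2.14, 2.11 and 2.16 in controls and 1.82, 1.75, 1.80 and 2.01 with P. gingivalis on its brightest probe. Control 1 lay among the P. gingivalis values, and the difference was −0.22 (adjusted p = 0.446). Another probe of the gene was well above background on 4 control arrays and no P. gingivalis array. It passed the filter through the controls alone and has only a bound, the control mean against the dimmest signal called well above background: at least 1.48-fold higher in control (means −4.43 and −5.70, adjusted p = 0.323). The remaining tested probe stood at −0.05. Under the value table's groups Mmrn2 and Egfl7 turned to 0.02 and 0.18. On the 4 arrays grouped alike they stood at −0.35, at an unadjusted p under 0.05, and −0.13.

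Of the 5 genes of vessel tone and G protein-coupled signalling, Nos3 was the one at an unadjusted p under 0.05. Nos3 encodes the endothelial nitric oxide synthase. Its signal was 1.37, 1.44, 1.41 and 1.54 in controls and 1.12, 1.1, 1.25 and 1.20 with P. gingivalis. The groups were apart and tight, with a difference of −0.27 ± 0.06 (SE), 1.21-fold lower with an interval of 1.09 to 1.34 (adjusted p = 0.323). Regrouped as in the value table it turned to 0.09, and on the 4 arrays grouped alike it was −0.18.

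Ramp2, the coreceptor that makes the adrenomedullin receptor, read 3.24, 3.30, 3.48 and 3.48 in controls and 3.76, 3.73, 3.30 and 3.54 with P. gingivalis. Its 2 probes stood at 0.21 and 0.22, the opposite side to Nos3, with overlapping groups (adjusted p-values of 0.527 and 0.454). Aplnr, the apelin receptor, read −3.33, −3.58, −3.47 and −3.59 in controls and −3.95, −3.52, −2.73 and −3.01 with P. gingivalis. The P. gingivalis arrays lay on both sides of the controls, with a difference of 0.19 ± 0.24 (SE). Its ligand Apln stood at −0.30 ± 0.21 (SE) and S1pr1, the sphingosine 1-phosphate receptor that steadies the endothelial barrier, at −0.12, both with intervals that span 0.

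The Notch genes, 2 in number, did not differ beyond their spread. Notch4, the endothelial Notch receptor, read 2.07, 2.07, 2.18 and 2.16 in controls and 2.10, 2.33, 1.92 and 2.17 with P. gingivalis, a difference of 0.01 with an interval of −0.20 to 0.22. Dll4, the Notch ligand of tip cells and arteries, read −2.81, −3.66, −3.27 and −2.72 in controls and −3.49, −3.41, −3.93 and −2.98 with P. gingivalis. Both groups were scattered over about a log2 unit, and the difference of −0.34 ± 0.25 (SE) did not pass (adjusted p = 0.636).

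Of the 4 transcription factors 1 was lower, 1 higher and 2 near 0. Erg, the ETS factor that keeps endothelial identity, read −1.64, −1.75, −1.64 and −1.64 in controls and −2.01, −1.88, −1.92 and −2.01 with P. gingivalis. Both groups were tight and apart, with a difference of −0.29 ± 0.06 (SE), 1.22-fold lower with an interval of 1.11 to 1.34 (adjusted p = 0.309). Sox17, a SOX factor of arterial endothelium, read −1.11, −1.03, −0.87 and −1.0 in controls and −0.70, −0.79, −0.90 and −0.79 with P. gingivalis. P. gingivalis 3 lay within the controls, and the difference was 0.21 ± 0.07 (SE; adjusted p = 0.392). The other Sox17 probes disagreed in sign, at 0.13 and −0.17, and the mean over its probes was not at an unadjusted p under 0.05.

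Its relatives Sox18 and Sox7 stood at −0.02 and 0.03. Sox18, a factor that acts upstream of Prox1 in lymphatic development, read −0.42, −0.33, −0.52 and −0.61 in controls and −0.70, −0.43, −0.47 and −0.38 with P. gingivalis, with overlap. Under the value table's groups Erg and Sox17 both stood at 0.02. On the 4 arrays grouped alike they stood at −0.27 and 0.23, neither at an unadjusted p under 0.05.

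Of the 3 lymphatic genes, 2 stood on the other side from most members. Averaged over Lyve1, Prox1 and Mmrn1, the level was −0.40 to −0.09 on the control arrays and 0.11 to 0.34 on the P. gingivalis arrays, without overlap. Mmrn1, a multimerin that marks lymphatic endothelium and is stored in platelets, had the lowest p of all members. It read −2.68, −2.27, −2.52 and −2.39 in controls and −1.92, −1.90, −1.77 and −1.97 with P. gingivalis. Every P. gingivalis array lay above every control, with a difference of 0.57 ± 0.10 (SE), 1.49-fold higher with an interval of 1.27 to 1.74 (adjusted p = 0.309). Its second probe was well above background on 0 of 8 arrays.

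Lyve1, a hyaluronan receptor of lymphatic endothelium that tissue macrophages also carry, read −2.07, −1.66, −1.22 and −1.74 in controls and −0.25, −0.94, −1.10 and −1.37 with P. gingivalis. P. gingivalis 4 overlapped control 3 and P. gingivalis 1 was highest, and the difference was 0.76 ± 0.26 (SE), 1.69-fold higher with an interval of 1.13 to 2.54 (adjusted p = 0.373). Prox1, the factor that sets lymphatic identity, read −3.83, −3.90, −3.92 and −3.72 in controls and −4.19, −4.01, −4.01 and −3.72 with P. gingivalis. The groups overlapped, its 2 probes stood at −0.14 and 0.31, and neither passed (adjusted p-values of 0.628 and 0.7). Prox1 is also made by muscle fibres and satellite cells, so in muscle it does not mark lymphatic vessels alone. Regrouped as in the value table, Lyve1 turned to −0.13 and Mmrn1 stood at 0.03. Within the 4 arrays grouped alike they stood at 0.63 and 0.60, both at an unadjusted p under 0.05.

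A wider list of 7 lymphatic markers adds Flt4, Pdpn, Ccl21a and Reln to these 3 genes. Of the 7, 5 were higher in mean, with a median of 0.57. At an unadjusted p under 0.05, 4 were higher (57.1%), where 4.97% of all gene names were. The list's level was −0.38 to −0.08 on control and 0.15 to 0.28 on P. gingivalis arrays, and its summed signal 3.61 to 4.32 and 4.45 to 5.29 times the 75th percentile. Reln, the secreted glycoprotein reelin, differed by 0.59 ± 0.13 (SE; adjusted p = 0.323) and Ccl21a, the chemokine by which lymphatic vessels draw dendritic cells, by 0.48 ± 0.13 (SE; adjusted p = 0.323), both with groups apart. Near-identical copies of Ccl21a exist in the mouse genome, and its probe may read them too. Pdpn, the podoplanin of lymphatic vessels and fibroblasts, stood at −0.12. Of the 6 blood endothelial markers Pecam1, Cdh5, Kdr, Tie1, Cldn5 and Emcn, all 6 had a lower mean, where 54.6% of all gene names did. Their median was −0.05, against −0.02 over all gene names. Kdr and Cldn5 were lower at an unadjusted p under 0.05 (33.3%; 5.95% of all gene names). The other 4 stood between −0.05 and −0.02. All 6 were well above background on every array.

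Other endothelial genes were more often lower than higher in mean. Of 60 such genes 58 were tested, with 40 lower and 18 higher in mean (median −0.09), and 14 lower and 5 higher at an unadjusted p under 0.05. Of all tested gene names 54.6% were lower in mean, and 5.95% were lower and 4.97% higher at that p. Groups were apart for 8 lower and 5 higher genes of the list, and for 3.61% (lower) and 3.17% (higher) of all tested gene names. Beside Reln and Ccl21a, the lowest p-values belonged to Ecscr, a surface protein of endothelial migration (−0.34 ± 0.07, SE), the adhesion receptor Adgrl4 (−0.35 ± 0.09), Fli1, the ETS relative of Erg (−0.27 ± 0.07), and Mcam, an adhesion molecule that pericytes also carry (0.26 ± 0.07). The adjusted p was 0.31 for Ecscr and 0.323 for the other 3 genes.

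**Figure D4:**
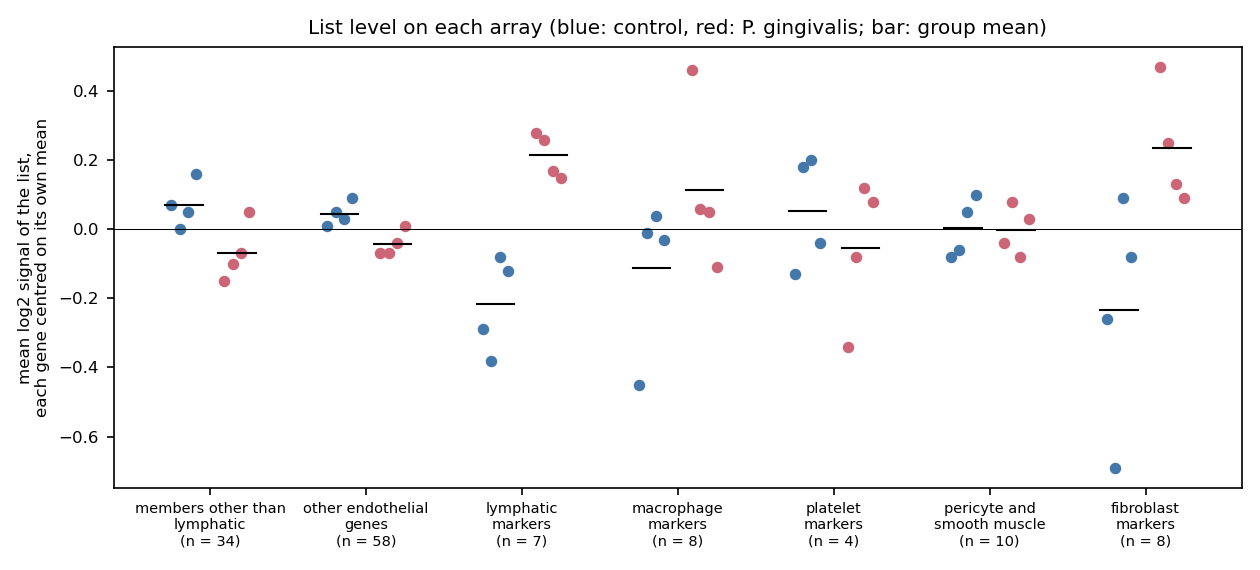
Mean log2 signal of each gene list on each array, with every gene centred on its own mean (points; blue control, red P. gingivalis; bars are group means), and the number of tested genes under each list. Of the lists shown, the lymphatic and fibroblast ones separate the groups upward (the fibroblast list narrowly, at up to 0.09 and from 0.09). The 34 members other than Lyve1, Prox1 and Mmrn1 overlap, at 0.00 to 0.16 in controls and −0.15 to 0.05 with P. gingivalis. They still include Flt4, which was dim and far lowest on control 2, the array with the level of 0.00.

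Markers of other cell types differed between the same groups, and their part in the members' differences was not tested. Of all tested gene names 54.6% were lower in mean, and 5.95% were lower and 4.97% higher at an unadjusted p under 0.05. Macrophage markers were higher in mean for 7 of 8 genes, with summed signals of 9.86 to 13.6 in controls and 13.2 to 18.4 with P. gingivalis. Csf1r stood at 0.35 and Cd163 at 0.64, both at an unadjusted p under 0.05. Lyve1 shares its highest array, P. gingivalis 1, with that list (0.46 against −0.11 to 0.06 on the other P. gingivalis arrays). Fibroblast markers were higher in 8 of 8 genes, 4 at an unadjusted p under 0.05, with summed signals of 247 to 331 and 315 to 377. Among them Lum stood at 0.65, Col1a1 at 1.01 and Col3a1 at 0.94, and the probe of Dcn at 0.13. Neutrophil markers were lower in 3 of 3 tested genes, with S100a9 at −2.93 and S100a8, well above background on 4 control and 2 P. gingivalis arrays, at −3.42 (adjusted p = 0.329 for both), and summed signals of 0.265 to 3.21 and 0.114 to 0.327. The other 3 of the 6 neutrophil markers, Retnlg, Ngp and Ltf, were not bright enough to test.

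Platelet markers, which bear on Mmrn1, Selp and Vwf, were mixed. Of 4 tested genes 2 were higher and 2 lower, with Pf4 at 0.06 and Ppbp at −0.72, and summed signals of 3.36 to 4.17 and 3.58 to 4.28. Pericyte and smooth muscle markers had a median of 0.04 over 10 genes, with 1 higher at an unadjusted p under 0.05 (Acta2, 0.16). Their summed signals were 336 to 367 and 374 to 406. Acta2 was by far the brightest gene of this list, so these sums follow mainly its probe. With every gene centred on its own mean, the list's level overlapped, at −0.08 to 0.1 in controls and −0.08 to 0.08 with P. gingivalis. Red blood cell markers had no gene at an unadjusted p under 0.05 among 6, with Hba-a1 at −0.13 and summed signals of 177 to 277 and 194 to 303. Fast fibre markers were higher in mean for 10 of 10 genes, none at an unadjusted p under 0.05, with a median of 0.12, Pvalb at 0.11, and summed signals of 6460 to 7100 and 7160 to 7510. The mean level of this list, centred as in the plot of list levels, did not overlap either, at −0.11 to −0.01 in controls and 0.01 to 0.10 with P. gingivalis. Satellite cell markers had a median of −0.02 over 5 genes, with the brightest, Cdh15, at −0.09. Among them was the member Vcam1, itself at −0.02. Adipocyte markers had a median of 0.01 over 5 genes, with Adig lower at −0.50.

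The members were not spread evenly over the arrays within a group. Control 4 held the highest value of 15 of the 37 tested members and of 6 of the 11 lower ones. P. gingivalis 2 held the lowest value of 7 of those 11 and P. gingivalis 1 of 4, while P. gingivalis 4 was the highest of its own group in 8. The 11 lower members spanned array levels from −1.81 to 4.33 and probe GC contents of 35% to 55%. Without control 4 and without each other array in turn, the count of lower members at an unadjusted p under 0.05 stayed between 10 and 13, and 10 of the 11, all but Eng, were among them in 8 of 8 such fits. Of all tested probes 4.48% to 7.41% were lower at that p in these fits.

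**Figure D5:**
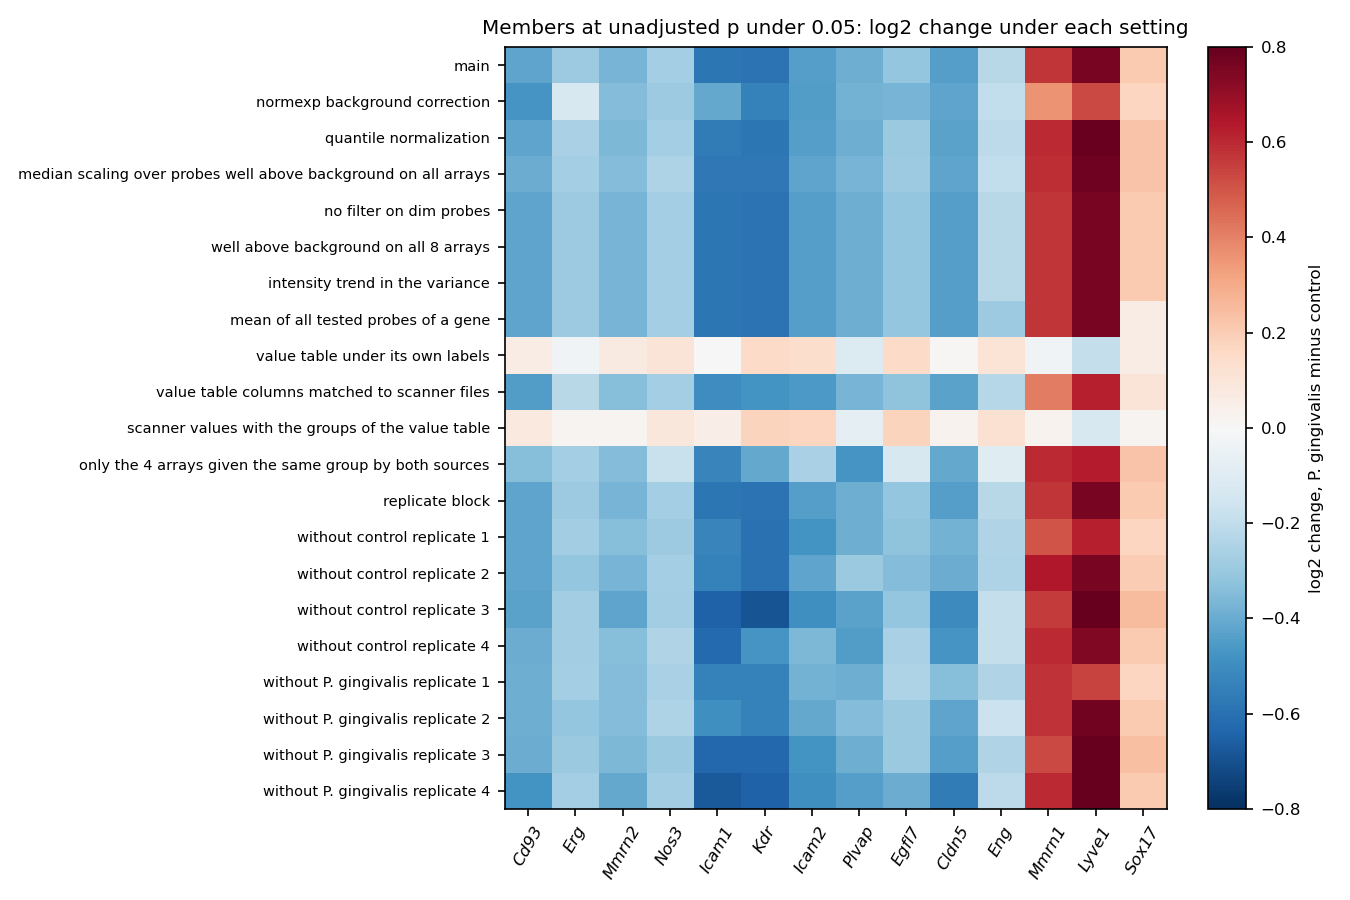
Log2 difference, P. gingivalis minus control (colour), of the 14 members at an unadjusted p under 0.05 (columns) under each way of processing or leaving out an array (lines; the top line is the analysis described here). Colours keep their side except in the value table under its own labels and the scanner values with the value table's groups, where Kdr goes from −0.59 to 0.15 and 0.18.

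Promoter sequences were searched for letters that NF-kB and ETS factors are known to bind, because Icam1 and Erg were among the lower members. The search covered 250 bases before the start of each gene, on both strands, in the RefSeq promoter table of build GRCm38.p6, where 21 of the 38 members have an entry. The NF-kB letters GGNNNTTCC occurred in 15.7% of 32851 promoters and 17.6% of 27025 genes, and in 8 of the 21 members: Egfl7, Eng, Gja4, Icam1, Mmrn1, Notch4, Sele and Selp. The ETS letters CNGGAAG occurred in 26.6% of promoters and 29.2% of genes, and in 12 of the 21 members, among them Egfl7 and Erg. The letters of both overlap in Egfl7. The SOX letters AACAAT occurred in 9.42% of promoters and 10.9% of genes, and in 4 of the 21 members. The GATA letters AGATAA occurred in 9.99% of promoters and 11.4% of genes, and in 1 member, Erg. The AP-1 letters TGANTCA occurred in 6.75% of promoters and 7.82% of genes, and in 2 members, Sele and Selp. Of the lower members, 6 have an entry. Of these 3 hold the NF-kB letters (Egfl7, Eng, Icam1) and 2 the ETS letters (Egfl7, Erg). The higher member Mmrn1 holds the NF-kB letters as well. A match is a run of letters and not a site shown to be bound.

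The promoters of Icam1, Eng and Mmrn1 are printed because they hold the same NF-kB letters and their genes stood on opposite sides, Icam1 and Eng lower and Mmrn1 higher. All 3 are on the plus strand, at chr9:21015690-21015939, chr2:32646345-32646594 and chr6:60944067-60944316, and end at the base before the annotated start. Capitals mark the matches: in Icam1 GGAAATTCC and GGAAATACC, which begin 153 and 84 bases before the start, in Eng GGCACTTCC at 56 bases and in Mmrn1 GGCGTTTCC at 46 bases.
Icam1: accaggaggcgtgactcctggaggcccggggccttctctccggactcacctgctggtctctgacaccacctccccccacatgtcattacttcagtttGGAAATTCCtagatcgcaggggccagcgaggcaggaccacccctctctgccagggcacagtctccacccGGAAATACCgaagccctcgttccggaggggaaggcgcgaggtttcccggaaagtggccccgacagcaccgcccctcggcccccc
Eng: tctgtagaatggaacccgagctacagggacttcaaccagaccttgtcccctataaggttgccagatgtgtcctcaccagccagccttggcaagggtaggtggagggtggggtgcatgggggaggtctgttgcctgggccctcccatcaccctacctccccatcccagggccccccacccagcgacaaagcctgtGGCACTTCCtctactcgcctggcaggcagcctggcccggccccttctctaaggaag
Mmrn1: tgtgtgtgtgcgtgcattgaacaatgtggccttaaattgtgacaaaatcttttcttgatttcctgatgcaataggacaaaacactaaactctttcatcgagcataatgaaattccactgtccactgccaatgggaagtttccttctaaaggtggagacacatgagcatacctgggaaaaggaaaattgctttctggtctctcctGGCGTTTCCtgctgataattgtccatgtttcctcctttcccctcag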

How the data were processed

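Cy3 signals of 8 tibialis anterior samples, 4 control and 4 P. gingivalis, were read from the scanner files. The authors made the spot intensity values with Agilent Feature Extraction, which subtracted the background and detrended each array. Its version is 11.0.1.1 per the file headers, while the submitters' processing notes give 11.1. Probe positions are on mm9. The authors also deposited log2 values for 24764 probes, normalized in a way not given in the sources used here, with column medians of 7.357 to 7.374.

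Here the 75th percentile of an array's 59305 non-control spots was subtracted from its log2 processed intensities, outlier spots were left out, and spots of 1 probe were averaged. The test covered 31649 of 56605 probes, which had over 50% of their spots well above background on 4 or more of the 8 arrays. A gene is a gene name in the array files, read by whichever tested probe had the highest mean. Groups were compared with limma 3.58.1 (lmFit, eBayes, no covariate) in R 4.3.3, with p-values adjusted by Benjamini-Hochberg over the 31649 probes and called at 0.05. Intervals are 95% confidence intervals of that fit. The number of arrays limits the precision. The members and lists were chosen with earlier results of these data known, so no test over a list is given, and unadjusted p-values are descriptions beside the share of all gene names.

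Values on every array are given for members at an unadjusted p under 0.05, with groups apart or with probes that disagree, and for the members of highest and lowest signal in each role. Of other endothelial genes the 6 of lowest p are named, and of each marker list the brightest gene and those at p under 0.01. A few more marker genes at an unadjusted p under 0.05 were named after their values were seen. The alternatives were normexp with an offset of 50, quantile and median scaling, other filters, an intensity trend, the mean over probes, the value table under both labellings, a replicate block and leaving out each array. The RefSeq promoter table was matched by symbol. Figures were drawn with matplotlib 3.10.9.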

Additional observations from a re-analysis of the deposited data

Results flagged for a closer look

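Within groups of 4 arrays, 1 array lay far from the other 3 in 7 of the 74 groups checked (a gap to the nearest over Dixon's critical share of the group's range), where chance gives about 1 in 20. P. gingivalis 4 read −1.01 for Pecam1 against −1.27 to −1.23 on the other arrays of its group, and 2.67 for Cd93 against 2.40 to 2.42. P. gingivalis 3 read −1.39 for Vcam1 against −1.08 to −1.03, and P. gingivalis 1 read 0.24 for S1pr1 against 0.39 to 0.41. Control 2 read −0.36 for Gja4 against −0.19 to −0.17 and −1.75 for Erg against −1.64 on the other controls. Control 1 read 1.83 for Vwf against 2.11 to 2.16. In Cd93 and Erg the single array lay toward the other group, and the groups were apart with it included.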

How the results depend on the processing

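The groups of the value table turned the direction of most lower members. Under the table's own labels 1 member was lower at an unadjusted p under 0.05 (2.1% of all tested probes). Groups were apart for 0 lower and 2 higher members, and the median was 0.06. The share of all gene names with groups apart is not given for the table's groups, on its own values or on the scanner values. These counts of separated members therefore have no background beside them. Kdr turned to 0.15, Cldn5 to 0.01, Icam2 to 0.14, Eng to 0.11, Cd93 to 0.06, Egfl7 to 0.15, Mmrn2 to 0.07, Nos3 to 0.10, Lyve1 to −0.19 and Mmrn1 to −0.03. The scanner values with those groups gave 0 lower at an unadjusted p under 0.05, 0 lower and 2 higher with groups apart, and a median of 0.06. Kdr was then at 0.18, Cldn5 0.03, Icam2 0.17, Eng 0.12, Cd93 0.08, Icam1 0.05, Egfl7 0.18, Mmrn2 0.02, Nos3 0.09, Erg 0.02 and Lyve1 −0.13. With the table's columns matched to the scanner files, 12 members were lower and 2 higher, and 11 of 11 lower members kept an unadjusted p under 0.05. Of all probes tested there 5.64% were lower and 5.95% higher at that p. On the 4 arrays grouped alike 6 were lower at an unadjusted p under 0.05, and 12 were lower and 9 higher with groups apart, where a group has fewer arrays and 26.2% (lower) and 17.6% (higher) of all tested gene names were apart.

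Normexp gave 1 member past the adjusted threshold (Cd93, adjusted p = 0.0329), 6 higher at an unadjusted p under 0.05, 4 higher with groups apart and a median of −0.03. In mean, 23 members were then lower and 14 higher, against 28 and 9 in the main analysis. Erg moved from −0.29 to −0.13 and Mmrn1 from 0.57 to 0.36, and Prox1 turned from −0.14 to 0.15. Normexp moved the median of all tested probes from −0.0155 to 0.0492, with 7.39% of all tested gene names lower and 20.4% higher at an unadjusted p under 0.05, 12.8% higher with groups apart, and 10 past the adjusted threshold. With the replicate block 11 members were lower and 2 higher at an unadjusted p under 0.05, and the median was −0.12. Of all tested probes 6.08% were lower and 4.69% higher at that p. The numbers do not pair the samples, whose same-number correlations were 0.063, 0.033, 0.007 and 0.009, and 1 of 4 numbers was its own best partner. Leaving out each array gave 10 to 13 lower and 2 to 4 higher at an unadjusted p under 0.05. Of all tested probes 4.48% to 7.41% were lower and 3.78% to 5.29% higher at that p. Groups were apart for 10 to 14 lower and 1 to 3 higher members. With 3 arrays in 1 group such separation is easier, and its share over all gene names is not given. The medians were −0.14 to −0.08, with 0 past the adjusted threshold in every fit. Eng was at an unadjusted p under 0.05 in 5 of the 8 and Sox17 in 6 of the 8. The causes of these differences were not tested. Of 735 values of single members under all alternatives 99 had the other sign, 22 of them in the value table under its own labels and 25 in the scanner values with its groups, and the 21 among members at an unadjusted p under 0.05 all came from those groups. Signal over background limits Flt4, well above it on 2 control and 3 P. gingivalis arrays, and Sele, on 0.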
